A study of Mus musculus with 9 samples.

Results

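The genes described here had liver RNA levels that shifted in 2 steps in the same direction, 1 step with a high-fat diet and a further step when a bacterium was added to that diet. They number 116 of the 10523 table rows with a mean of at least 1 FPKM, a read level scaled to transcript length and library depth, and the whole table has 54007 rows. Members were chosen by their FPKM alone. A gene was taken when all 3 values of HFD+Pc lay beyond all 3 of HFD, and all 3 of HFD beyond all 3 of control, in the same direction. Each step also had to be at least 1.2-fold in the group mean plus 1 FPKM. There were 26 rising genes (0.247% of the rows) and 90 falling genes (0.855%). The rule used all 9 libraries and all 3 contrasts between the groups, so the levels below are a description of the chosen genes, without tests on them.

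Liver RNA of C57BL/6 mice at postnatal day 98 was sequenced in 9 libraries, 3 in each of 3 groups. The HFD+Pc group received a high-fat diet and Papillibacter cinnamivorans, a gut bacterium, by gavage (replicates 1, 3 and 4). The HFD group received the high-fat diet without that bacterium (replicates 1, 2 and 3), and the control group received neither (replicates 1, 2 and 4). The study placed 15 mice in each group at 6 weeks of age, but no label tells if a library came from a single mouse or from several, so the spread between libraries may be partly technical. Because HFD+Pc is compared with HFD and with control, and HFD with control, each pair of comparisons shares libraries.

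The liver oxidizes fatty acids in mitochondria and peroxisomes, stores surplus fat as triglyceride in lipid droplets, and exports it in lipoproteins. High-fat feeding in mice is known to alter these pathways together with drug and sterol metabolism, and products of gut bacteria reach the liver through the portal vein. The respiratory chain passes electrons from fuel oxidation to oxygen, and the ATP synthase uses the resulting proton gradient to make ATP.

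Recovered read totals were 16279985 to 18641454 per library. All 22 hepatocyte markers were at or above a mean of 1 FPKM. Of 13 neutrophil markers, 3 were at that level and 1, Ly6g, was at 0 in every library. The neutrophil markers summed to 7.99 to 8.8 FPKM in HFD+Pc, 7.01 to 20.2 FPKM in HFD and 4.45 to 11.2 FPKM in control. In the same order, adipocyte markers summed to 968 to 1387, 1036 to 1298 and 1210 to 1756 FPKM. Immunoglobulin and plasma cell markers summed to 141 to 154, 163 to 195 and 132 to 165 FPKM. The summed level of the hepatocyte markers was 59943 to 75494 FPKM in HFD+Pc, 53134 to 57210 FPKM in HFD and 72903 to 74753 FPKM in control, so it was not stepwise. The 21 sinusoidal endothelial markers summed to 191 to 204 FPKM in HFD+Pc, 161 to 203 FPKM in HFD and 221 to 247 FPKM in control. In these bulk samples, fewer cells of a type and less RNA per cell cannot be told apart.

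Without the rule on step size, 188 rows (1.79%) were ordered upward and 212 rows (2.01%) downward across the 3 groups. The 4 orders that do not put HFD in the middle were rarer, with 13 to 49 rows each without the step rule and 2 to 12 rows with it. The direct count of members called by limma cannot be read as a result, since the rule used the same contrasts. By limma with Benjamini-Hochberg adjustment, 11.5% of tested rows were higher and 12.3% lower in HFD+Pc than in control, and the 26 rising and 90 falling members were all among them. In HFD+Pc against HFD, 0.200% of rows were higher and 0.447% lower, with 1 rising and 18 falling members called. In HFD against control, 4.76% of rows were higher and 5.52% lower, with 11 rising and 44 falling members called. These shares over all tested rows are the background for the counts of list genes below.

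**Figure D1:**
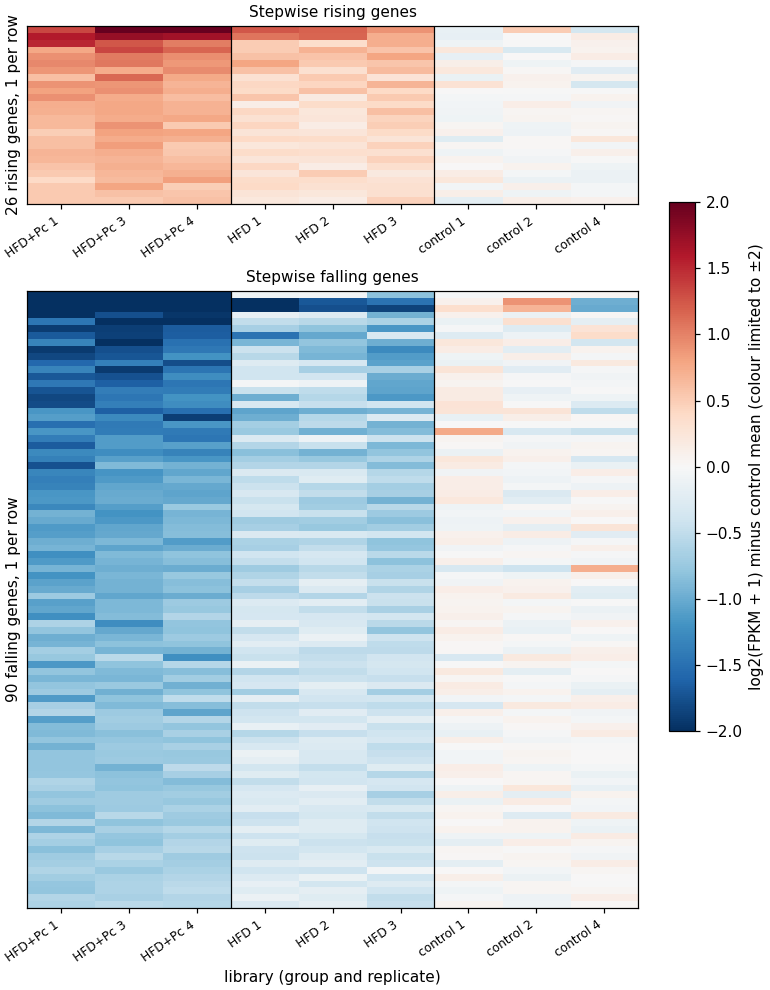
Level of each of the 26 rising and 90 falling genes (1 per row) in each of the 9 libraries (columns, HFD+Pc, then HFD, then control), as log2(FPKM + 1) minus the control mean, with colour limited to ±2. The HFD columns lie between the HFD+Pc and control columns in colour, as the rule requires, and 37 falling genes but 4 rising genes were at least 2-fold apart between HFD+Pc and control in group mean plus 1.

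The falling genes were shifted further than the rising ones. The median difference between HFD+Pc and control on the log2(FPKM + 1) scale was 0.72 for the rising genes and -0.91 for the falling genes. The median library level relative to the control mean was 0.67, 0.78 and 0.71 in HFD+Pc and 0.39, 0.34 and 0.46 in HFD for the rising genes. For the falling genes it was -1.0, -0.93 and -0.85 in HFD+Pc and -0.41, -0.38 and -0.51 in HFD.

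The share of the log2 difference between HFD+Pc and control that already stood between HFD and control differed among genes. Its median was 51.8% for the rising genes, from 40.5% in Elp4 to 67.6% in Mrpl1. For the falling genes the median was 49.8%, but the range ran from 11.4% in Atp5k to 86.8% in Sik1. The step between HFD and control was the larger one in 16 of 26 rising genes and in 45 of 90 falling genes.

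**Figure D2:**
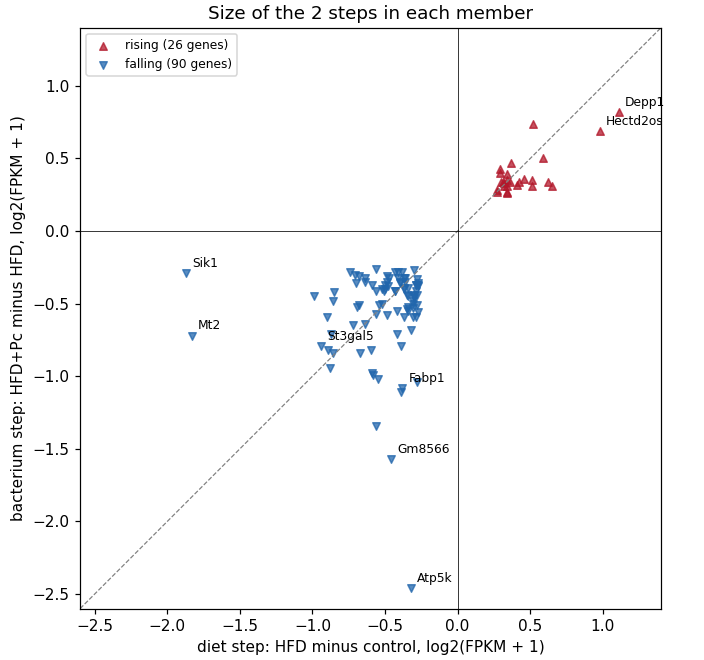
Size of both steps in each member on the log2(FPKM + 1) scale, with HFD minus control on the x axis and HFD+Pc minus HFD on the y axis, triangles up for the 26 rising and down for the 90 falling genes, and a dashed line where both steps are equal. Sik1 and Mt2 lie far to the left with most of their difference between HFD and control, and Atp5k lies far down with most of it between HFD+Pc and HFD.

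Among the rising genes, Depp1 had the largest difference on the log2(FPKM + 1) scale, and Hectd2os the largest with a pseudocount of 0.1 (2.03, against 1.97 for Depp1). Depp1 is a FOXO-induced regulator of autophagy, known from human cells. Its level was 61.2, 127 and 101 FPKM in HFD+Pc, 57.0, 54.8 and 44.7 FPKM in HFD, and 21.1, 33.9 and 18.2 FPKM in control. HFD+Pc replicate 1 lay just above the highest HFD library, while the other two HFD+Pc libraries stood well above it. The log2 difference was 1.92 between HFD+Pc and control, of which 0.82 lay between HFD+Pc and HFD. Wfdc21, a small secreted protein with a WAP domain, was 1013, 1504 and 1336 FPKM in HFD+Pc, 846, 958 and 879 FPKM in HFD, and 695, 481 and 623 FPKM in control. The gap between its lowest HFD+Pc and its highest HFD library was small beside the spread of the HFD+Pc libraries. The antisense RNA Hectd2os was 8.41, 9.45 and 8.98 FPKM in HFD+Pc, 5.56, 5.99 and 4.14 FPKM in HFD, and 1.80, 2.13 and 2.47 FPKM in control. Exons of Hectd2 on the opposite strand cover 46.1% of Hectd2os, but Hectd2 itself averaged 0.451 FPKM in HFD+Pc, 0.364 FPKM in HFD and 0.276 FPKM in control. Whether reads were assigned by strand is not given in the sources used here.

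The rising set included 3 enzymes that break down fatty acids or prostaglandins. Hadh, the mitochondrial short-chain 3-hydroxyacyl-CoA dehydrogenase of beta-oxidation, was 99.6, 110 and 107 FPKM in HFD+Pc, 89.7, 74.8 and 85.3 FPKM in HFD, and 67.8, 70.3 and 63.4 FPKM in control. Decr2, the peroxisomal 2,4-dienoyl-CoA reductase needed for unsaturated fatty acids, was 168, 175 and 165 FPKM in HFD+Pc, 136, 119 and 155 FPKM in HFD, and 96.4, 105 and 104 FPKM in control. Hpgd, which inactivates prostaglandins, was 117, 124 and 109 FPKM in HFD+Pc, 103, 86.2 and 87.4 FPKM in HFD, and 64.5, 55.8 and 58.2 FPKM in control. The groups stood apart in all 3 genes by the rule, with the HFD+Pc libraries close together, but Decr2 and Hpgd were not stepwise after scaling each library to the same sum, nor Decr2 after quantile normalization. Of the 37 tested genes on the list for fatty acid oxidation and PPAR-alpha targets, 10 were higher and 1, Cpt1a, was lower in HFD+Pc than in control by limma with Benjamini-Hochberg adjustment. The list's median log2 difference was 0.26, against 0.01 over all tested rows. In HFD+Pc against HFD limma called 0 of the 37, with 5 higher and 1 lower at an unadjusted p under 0.05 and a median of 0.14, while in HFD against control 5 were higher and 1 lower, with a median of 0.18. Outside the rising set, Vnn1, an enzyme that releases pantothenate and a PPAR-alpha target, averaged 87.0 FPKM in HFD+Pc, 77.6 FPKM in HFD and 31.3 FPKM in control. The rows just outside the step threshold were Bdh1 and Acads, both of fat or ketone oxidation, and the histone gene Hist1h2bc. Their smaller steps were 1.1986-fold, 1.1916-fold and 1.1905-fold.

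Both drug metabolism genes in the rising set took the larger part of their difference between HFD and control. Cyp2c29, a cytochrome P450 that also epoxidizes fatty acids, was 808, 733 and 839 FPKM in HFD+Pc, 653, 543 and 679 FPKM in HFD, and 506, 442 and 373 FPKM in control. The 16 other tested pericentral markers summed to 6957 to 7355 FPKM in HFD+Pc, 6055 to 7068 FPKM in HFD and 4395 to 5775 FPKM in control, so HFD+Pc and HFD overlapped. The periportal markers summed to 5524 to 6706 FPKM in HFD+Pc, 5035 to 6469 FPKM in HFD and 7832 to 9505 FPKM in control. The part of zonal RNA in the level of Cyp2c29 was not tested. Ugt1a1, which conjugates bilirubin, was 75.6, 74.5 and 64.2 FPKM in HFD+Pc, 53.6, 54.2 and 64.2 FPKM in HFD, and 48.9, 42.0 and 30.9 FPKM in control. Its groups touched, because HFD+Pc replicate 4 and HFD replicate 3 differ only beyond the third digit, and it was not stepwise under any of the 3 other scalings. Ugt1a1 shares 58.9% of its exon bases with other Ugt1a genes, and the log2 difference between HFD+Pc and control was 0.84 for its own depth-scaled reads but 0.29 with its copies added. Of 46 tested P450 and xenobiotic genes, 15 were higher and 3 lower in HFD+Pc than in control, and of 21 glucuronosyl- and sulfotransferases, 9 were higher and 3 lower.

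The remaining rising genes were spread over several functions. The mitochondrial proline tRNA mt-Tp, with an annotated length of 67 bases, was 2377, 1979 and 1701 FPKM in HFD+Pc, 1183, 1057 and 1371 FPKM in HFD, and 784, 829 and 887 FPKM in control. The 3 groups were well apart in mt-Tp. Mrpl1, a protein of the large mitochondrial ribosomal subunit, was 9.55, 10.6 and 9.68 FPKM in HFD+Pc, 7.47, 7.31 and 8.72 FPKM in HFD, and 4.03, 4.65 and 5.23 FPKM in control. It moved opposite to Mrpl51 and Mrps34, its counterparts among the falling genes.

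The rising set held 6 genes of the endoplasmic reticulum and Golgi, with log2 differences between HFD+Pc and control of 0.63 to 0.82. They included the lectin Mlec, the traffic protein Yipf5, the selenoprotein Selenot, the oligosaccharyltransferase subunit Magt1 and the lipid transfer protein Osbpl8. Selenot was 87.4, 89.0 and 84.0 FPKM in HFD+Pc, 65.3, 66.1 and 76.1 FPKM in HFD, and 58.1, 52.2 and 55.0 FPKM in control, with HFD replicate 3 the highest of its group. The proteasome chaperone Psmd5 had a log2 difference between HFD+Pc and control of 0.72. The tRNA genes Elp4, an Elongator subunit, and Cars, the cysteinyl-tRNA synthetase, had log2 differences of 0.73 and 0.62. The last coding genes, among them Rmdn1, Fgd4, Gpbp1 and Zfp518a, had log2 differences between 0.55 and 0.76, and the rising pseudogenes were Gm15163 and Pdcd5-ps.

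Zfp518a, Fgd4 and Gpbp1 were also the rising genes just inside the step threshold, with a smaller step of 1.2026-fold, 1.2049-fold and 1.2051-fold. Among the falling genes, Atp5g3, Mrpl51 and Gm9385 were just inside at 1.2017-fold, 1.2049-fold and 1.2051-fold, and Zfp768, Atp5d and Gchfr were just outside at 1.1999-fold, 1.1995-fold and 1.1967-fold. By mean level, Fgd4 (1.85 FPKM) and Gm6274 (1.02 FPKM) were the lowest rising and falling members, and Gm15779 (0.347 FPKM) and 4933440N22Rik (0.675 FPKM) were the nearest rows outside.

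The falling set held 7 subunits of the respiratory chain and ATP synthase. Atp5k, subunit e of the ATP synthase, had the largest difference of all members on the log2(FPKM + 1) scale. With a pseudocount of 0.1 the log2 difference between HFD+Pc and control was larger for Mt2, at -4.75, than for Atp5k, at -2.91. Its level was 8.45, 8.33 and 8.17 FPKM in HFD+Pc, 59.2, 60.7 and 35.3 FPKM in HFD, and 62.1, 62.3 and 64.5 FPKM in control. The same libraries held 91, 86 and 85 reads in HFD+Pc, 669, 642 and 366 reads in HFD, and 715, 652 and 719 reads in control. HFD replicates 1 and 2 were therefore close to control, and HFD replicate 3 alone made most of the step between HFD and control. The log2 difference was -2.78 between HFD+Pc and control and -2.46 between HFD+Pc and HFD. Without HFD replicate 3 the step between HFD and control was 1.05-fold in the group mean plus 1, against 1.21-fold with it, and the step between HFD+Pc and HFD was 6.54-fold, against 5.66-fold. Atp5k would thus not meet the rule without that library, and it was also no longer stepwise after scaling each library to the same sum, after quantile normalization, or with the trend in GC content and length removed.

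The other 6 subunits had log2 differences between HFD+Pc and control of -0.64 to -0.96. Cox6b1, a small subunit of cytochrome c oxidase, was 83.1, 105 and 129 FPKM in HFD+Pc, 162, 141 and 142 FPKM in HFD, and 176, 178 and 198 FPKM in control. Ndufc2, an accessory subunit of complex I, was 31.5, 33.8 and 34.2 FPKM in HFD+Pc, 52.1, 49.9 and 42.3 FPKM in HFD, and 61.7, 59.0 and 61.5 FPKM in control. The control and HFD+Pc libraries of Ndufc2 were tight and HFD replicate 3 was the lowest of its group, while Cox6b1 varied most within HFD+Pc. The complex I subunits Ndufb8 and Ndufb10 and the ATP synthase subunits Atp5o (the stalk protein OSCP) and Atp5g3 (the membrane ring subunit c) completed the group, with means of 6.27, 38.6, 17.7 and 106 FPKM in HFD+Pc, 8.32, 55.8, 23.8 and 138 FPKM in HFD, and 13, 69.0, 32.3 and 166 FPKM in control. Of the 7 subunits, only Ndufb8, Ndufc2 and Atp5o were stepwise under all 3 other scalings. Ndufb10 and Atp5g3 were not stepwise with equal library sums or quantile normalization, nor Cox6b1 with quantile normalization. Ndufb10 and Cox6b1 were also not stepwise with the GC and length trend removed. Of 78 tested genes of the chain and synthase, 27 were lower and 5 higher in HFD+Pc than in control by limma with Benjamini-Hochberg adjustment, and the list's median log2 difference was -0.17. In HFD+Pc against HFD, 3 were lower and 1 higher with a median of -0.02, and in HFD against control 12 were lower with a median of -0.14. A separate list of 15 tested mitochondrially encoded genes went the other way. Of these, 4 were higher and 0 lower in HFD+Pc than in control, with a median of 0.39. Their median was 0.44 in HFD+Pc against HFD and 0.18 in HFD against control, with 0 called in either.

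**Figure D3:**
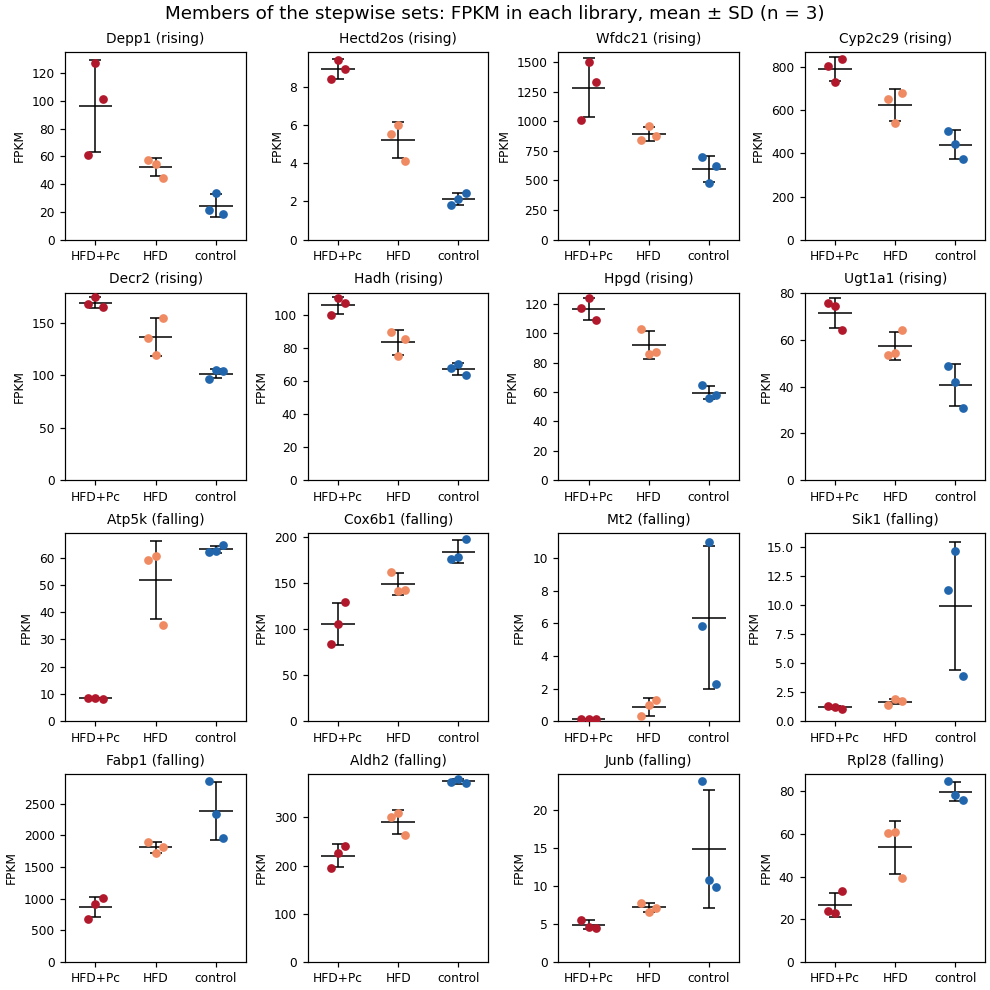
FPKM of 16 members in each library (points), with the group mean (long bar) and SD (error bars, n = 3), in HFD+Pc (red), HFD (orange) and control (blue). The 3 HFD+Pc points of Atp5k lie between 8.17 and 8.45 FPKM, below all other libraries, while Mt2, Sik1 and Junb spread most widely in control.

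Ribosomal protein genes and their copies formed a second falling group. Rpl41, a very short protein of the large cytosolic subunit, was 75.7, 50.2 and 68.5 FPKM in HFD+Pc, 145, 120 and 121 FPKM in HFD, and 228, 163 and 188 FPKM in control. Rpl28, of the same subunit, was 23.8, 23 and 33.0 FPKM in HFD+Pc, 60.5, 61.1 and 39.5 FPKM in HFD, and 84.9, 78.4 and 76.1 FPKM in control. Both genes had about the same log2 difference, -1.57 between HFD+Pc and control, and HFD replicate 3 of Rpl28 lay nearer to HFD+Pc than to its own group. Of 79 tested cytosolic ribosomal protein genes, 26 were lower and 3 higher in HFD+Pc than in control, with a median log2 difference of -0.15. The list's median showed no second step, at 0.02 in HFD+Pc against HFD (3 lower and 1 higher). It was -0.23 in HFD against control (6 lower, with 71 of 79 differences below 0). At an unadjusted p under 0.05 by limma, 14 were lower and 19 higher in HFD+Pc than in HFD. Over all tested rows, 1654 of 10523 passed in either direction. Of 76 mitochondrial ribosomal protein genes, 12 were lower and 9 higher in HFD+Pc than in control, against 12.3% and 11.5% of all tested rows. Their median was 0.01, and the falling members Mrpl51 and Mrps34 each had a log2 difference of -0.64. Exons of Mapk8ip3 on the other strand cover 63.4% of Mrps34.

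Pseudogenes made up 11 of the 90 falling genes (12.2%) and 2 of the 26 rising genes (7.69%), against 4.75% of all tested rows. A processed pseudogene is a DNA copy of a spliced RNA, and reads of the parent gene can be assigned to it. A near-identical copy, here at least 90% identity over at least 50% of the longest transcript, was found for 4 of 26 rising and 23 of the 88 falling genes searched. The search read both strands, so a gene that shares exon bases with a member at the same place also counted. Examples are Ugt1a genes for Ugt1a1, Hectd2 for Hectd2os, Nop9 for Cideb, Mapk8ip3 for Mrps34, Gm45774 for Mt2 and Gm45233 for Etfb. The copies held at least 5% of the summed reads in 4 rising and 18 falling genes, and with the copies added 1 and 8 of these had all 3 groups apart in stepwise order. The log2 difference in depth-scaled reads between HFD+Pc and control was -2.02 for Gm8566 alone and -0.79 with its copies, of which Sod1 holds the most reads. For Gm6274, a copy of Rpl7, it was -1.51 alone and 0.08 with the copies, and for Rps19-ps6 it was -0.87 alone and 0.00 with Rps19 and its other copies. For Rpl28-ps1 the value hardly moved, at -1.54 alone and -1.59 with Rpl28, and for Gm16418, a copy of Uqcr11, at -1.41 alone and -1.37 with the copies. The rising pseudogenes moved more, to 0.25 for Gm15163 with Suclg2, against 0.89 alone, and to -0.21 for Pdcd5-ps with Pdcd5, against 0.69 alone. The other falling pseudogenes were Gm10156, Rps10-ps1, Gm9385, Rpsa-ps2, Gm14584 and Gm12966. Exon bases were shared with any other row in 43 members. With another row of at least 1 FPKM they were shared in 17 members, in 15 of them only on the opposite strand. How the authors' counter treated reads that match several places is not given in the sources used here.

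**Figure D4:**
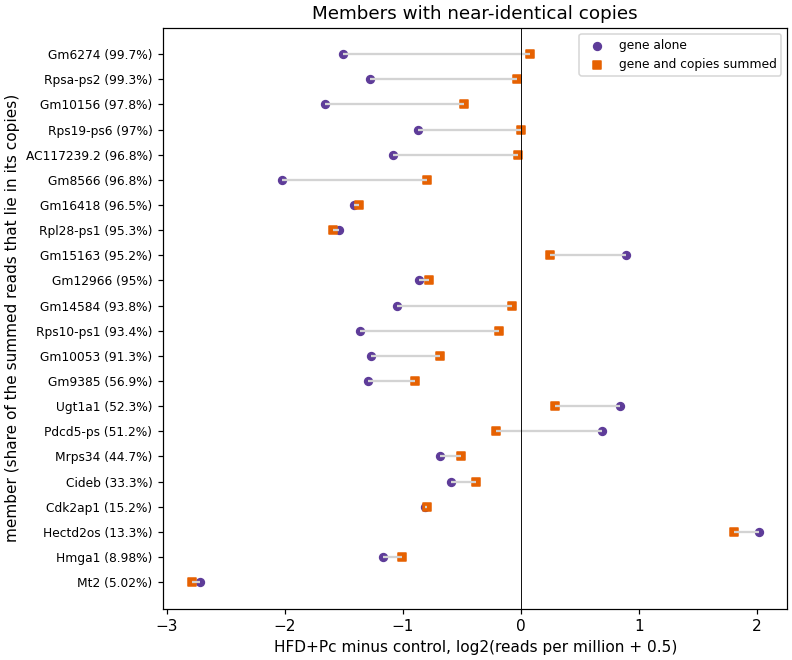
Difference between HFD+Pc and control in log2(CPM + 0.5), with reads scaled to library size, for 22 members whose copies hold at least 5% of the summed reads, for the gene alone (circles) and with its copies added (squares), with that share in brackets. Gm6274, Rpsa-ps2, Rps19-ps6 and AC117239.2 lie below -0.8 alone and near 0 with their copies, whereas Rpl28-ps1 and Gm16418 stay at about the same place.

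Fabp1, the liver fatty acid binding protein, was the most abundant falling gene. Its level was 682, 914 and 1001 FPKM in HFD+Pc, 1897, 1717 and 1809 FPKM in HFD, and 2861, 2341 and 1955 FPKM in control. The HFD+Pc libraries stood far below the others, while HFD replicate 1 came near the lowest control library. The log2 difference was -1.46 between HFD+Pc and control and -1.08 between HFD+Pc and HFD, but Fabp1 was not stepwise after scaling each library to the same sum or after quantile normalization. Agpat2, which makes phosphatidic acid on the way to triglyceride, was 83.7, 93.6 and 83.9 FPKM in HFD+Pc, 102, 116 and 101 FPKM in HFD, and 141, 143 and 131 FPKM in control. Cideb, a lipid droplet protein that also serves lipoprotein loading, was 18.6, 19.9 and 19.4 FPKM in HFD+Pc, 23.8, 25.8 and 21.0 FPKM in HFD, and 30.5, 27.6 and 29.6 FPKM in control. Exons of Nop9 on the opposite strand cover 76.3% of Cideb, and with Nop9 added the log2 difference in depth-scaled reads was -0.38, against -0.59 for Cideb alone. Of 33 tested genes of lipid droplets, triglyceride and fatty acid uptake, 6 were lower and 6 higher in HFD+Pc than in control, so the 3 falling members do not stand for the list. Nr1h2, the oxysterol receptor LXR-beta, averaged 7.61 ± 0.181 FPKM in HFD+Pc, 9.86 ± 1.43 FPKM in HFD and 12.2 ± 1.03 FPKM in control (SD, n = 3 each). Of 24 tested genes of lipoproteins and sterol efflux, 8 were lower and 1 higher in HFD+Pc than in control, with a median log2 difference of -0.13. That list's median was 0.05 in HFD+Pc against HFD, with 0 called, and -0.24 in HFD against control. The acyl-CoA binding protein Acbd6 had a log2 difference of -0.79 between HFD+Pc and control. None of 25 tested cholesterol synthesis and uptake genes was a member, although 11 of them were higher in HFD+Pc than in control.

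Enzymes and carriers of mitochondria and the cytosol gave 8 further falling genes. Aldh2, the mitochondrial enzyme that oxidizes acetaldehyde, was 194, 227 and 240 FPKM in HFD+Pc, 301, 310 and 263 FPKM in HFD, and 373, 381 and 372 FPKM in control. Etfb, the beta subunit of the flavoprotein that carries electrons from fatty acid oxidation to the chain, was 5.55, 7.28 and 7.22 FPKM in HFD+Pc, 15.0, 14.3 and 9.40 FPKM in HFD, and 23.3, 18.4 and 20.6 FPKM in control. HFD replicate 3 was again the lowest HFD library in both. The iron carrier Slc25a28, the basic amino acid carrier Slc25a29, the mitochondrial phosphatase Pptc7, the carbonyl reductase Cbr1, the pentose phosphate enzyme G6pdx and Glt1d1 had log2 differences of -0.66 to -1.01 between HFD+Pc and control. G6pdx was 3.38, 3.08 and 8.02 FPKM in control, so 1 control library carried much of its group mean. St3gal5, which makes the ganglioside GM3, was 33.5, 29.4 and 34.4 FPKM in HFD+Pc, 38.9, 53.5 and 87.8 FPKM in HFD, and 92.0, 102 and 142 FPKM in control. The HFD libraries of St3gal5 spanned nearly the whole gap, with HFD replicate 1 near HFD+Pc and HFD replicate 3 near control. A second sialyltransferase, St3gal3, had a log2 difference of -0.66, but it was not stepwise under any of the 3 other scalings or with the GC and length trend removed.

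Genes that respond quickly to hormones and stress varied most within control. Mt2, a metallothionein that binds zinc and copper, had 1 read in each HFD+Pc library, 3, 10 and 13 reads in the HFD libraries, and 64, 110 and 24 reads in the control libraries. These are 0.0973 to 0.101 FPKM in HFD+Pc, 0.278, 0.991 and 1.32 FPKM in HFD, and 5.82, 11 and 2.26 FPKM in control, so the second step rests on a few reads. Mt1, its close relative and not a member, averaged 31.7 FPKM in HFD+Pc, 29.9 FPKM in HFD and 350 FPKM in control. Exons of Gm45774 on the opposite strand cover 73.5% of Mt2. Gm45774 itself averaged 0 FPKM in HFD+Pc, 0.00682 FPKM in HFD and 0.0749 FPKM in control. How the authors' counter treated reads in that overlap is not given in the sources used here. Of 21 tested genes of metal and iron handling, 3 were lower and 4 higher in HFD+Pc than in control, with a median log2 difference of -0.02. Sik1, a kinase induced by cyclic AMP and glucagon, was 1.31, 1.17 and 1.07 FPKM in HFD+Pc, 1.41, 1.90 and 1.70 FPKM in HFD, and 11.3, 14.6 and 3.85 FPKM in control. Junb, a subunit of the AP-1 factor, was 5.52, 4.54 and 4.48 FPKM in HFD+Pc, 7.75, 6.56 and 7.08 FPKM in HFD, and 23.7, 10.8 and 9.83 FPKM in control. Control replicate 4 was the lowest control library in Mt2, Sik1 and Junb, and the HFD+Pc and HFD libraries of Sik1 nearly met. Jund, its relative, was 8.51, 6.69 and 6.93 FPKM in HFD+Pc, 9.97, 9.57 and 10.7 FPKM in HFD, and 15.5, 16.8 and 12.4 FPKM in control. Of 17 tested immediate early genes, 9 were lower and 1, Egr1, was higher in HFD+Pc than in control, with a list median of -0.89. In HFD+Pc against HFD the list median was -0.05 and Egr1 was higher, at 8.25 FPKM in HFD+Pc, 2.32 FPKM in HFD and 0.973 FPKM in control.

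Including Sik1, Junb, Jund and Nr1h2, 21 falling genes act in transcription, chromatin or rapid signal response. Their log2 differences between HFD+Pc and control ranged from -2.16 to -0.61 with a median of -0.90, and 14 of the 21 had the larger step between HFD and control. Esrra, a nuclear receptor that drives genes of mitochondrial oxidation, was 3.96, 4.23 and 3.50 FPKM in HFD+Pc, 5.28, 5.42 and 4.55 FPKM in HFD, and 9.59, 8.07 and 8.59 FPKM in control. All HFD libraries of Esrra lay closer to HFD+Pc than to control. Kdm6b, a demethylase of histone H3, had a log2 difference of -0.74. The others included the GTPase Gem, the ETS repressor Erf, the architectural proteins Hmga1 and Hmgb3, the cofactors Ldb1, Edf1 and Ssbp4, the zinc finger proteins Zfp703 and Zbed5, the mRNA decay factor Zfp36l2, the methyl-CpG domain protein Mbd6, the polymerase II machinery genes Taf15 and Polr2l, and the nucleic acid binding protein Ybx1. Of 36 tested nuclear receptors and liver transcription factors, 8 were lower and 3 higher in HFD+Pc than in control. Over all tested rows 12.3% were lower and 11.5% higher. A further 4 falling genes bind or splice RNA. Srsf5, a splicing factor, was 26.6, 25.9 and 28.9 FPKM in HFD+Pc, 38.9, 35.6 and 30.9 FPKM in HFD, and 49.7, 47.6 and 42.1 FPKM in control, and Sf3a2, Safb and Dazap1 had log2 differences of -0.72 to -0.87. Of 41 tested splicing and RNA binding genes, 8 were lower and 4 higher in HFD+Pc than in control, beside the same shares over all rows.

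Falling genes included markers of other liver cells. Lgals3, a galectin of macrophages, was 2.22, 1.73 and 2.20 FPKM in HFD+Pc, 2.96, 3.73 and 2.24 FPKM in HFD, and 5.15, 4.05 and 4.58 FPKM in control. The 26 macrophage markers in the table summed to 413 to 624 FPKM in HFD+Pc, 564 to 747 FPKM in HFD and 563 to 761 FPKM in control. Of the 23 tested, 5 were lower in HFD+Pc than in control, with a median log2 difference of -0.41. The list was not stepwise, with a median of -0.42 in HFD+Pc against HFD and 0.05 in HFD against control. Plvap, which forms the diaphragms of fenestrated endothelium, was 17.0, 17.9 and 17.7 FPKM in HFD+Pc, 26.6, 23.9 and 22.5 FPKM in HFD, and 29.1, 31.2 and 30.4 FPKM in control. The summed endothelial markers given above were lower in HFD+Pc and in HFD than in control, without the order seen in Plvap. The part of cell makeup in Lgals3 and Plvap was not tested, and neither gene was stepwise with the GC and length trend removed.

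The remaining falling coding genes numbered 17, with log2 differences between HFD+Pc and control of -0.68 to -1.50. Mif, a cytokine with broad expression, was 65.2, 74.6 and 95.3 FPKM in HFD+Pc, 125, 98.8 and 109 FPKM in HFD, and 151, 164 and 167 FPKM in control. Mien1 was 3.29, 2.72 and 3.25 FPKM in HFD+Pc, 10.3, 9.75 and 4.62 FPKM in HFD, and 11, 10.5 and 10.3 FPKM in control, with HFD replicate 3 far below control as in Atp5k. Without HFD replicate 3 its step between HFD and control was 1.05-fold in the group mean plus 1. The others were the endoplasmic reticulum protein Ddrgk1, the vinexin gene Sorbs3, the prefoldin subunit Pfdn6, the phosphatase inhibitor Ppp1r14b, the transporter Slc45a3, the Gs-alpha gene Gnas, the cochaperone Bag5, the sodium pump regulator Fxyd1, and Pdap1, Nrbp2, Tmem259, Card19, Bin3, Cdk2ap1 and Wbp2. The 5 noncoding RNAs were 2410006H16Rik, Gm27252, Gm15417, Gm8066 and Gm10658, with log2 differences of -0.69 to -1.58. The 4 models without a descriptive name, ENSMUSG00000095742, Gm10053, AC117239.2 and 1 row outside the Ensembl annotation, had log2 differences of -1.07 to -1.90, each with the larger step between HFD+Pc and HFD.

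HFD replicate 3 took an unequal place in the falling set. It was the lowest HFD library in 55 of the 90 falling genes (61.1%), against 34.9% of all tested rows. Among the rising genes it was the highest HFD library in 13 of 26 (50%), against 37.3% of tested rows. In HFD+Pc, replicate 1 was the lowest library in 50 of 90 falling genes (55.6%), against 41.6% of tested rows, and replicate 3 the highest in 18 of 26 rising genes (69.2%), against 34.7%.

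Sequence composition differed between the rising and the falling genes. The median GC content of the longest transcript was 41.7% for the rising genes, 54.7% for the falling genes and 49.4% for all tested rows with a value. The median exon length was 3874 bases for rising, 2125 bases for falling and 3950 bases for all tested genes, and 24 falling genes (27.0%) were shorter than 1000 bases, against 8.19% of tested genes. All genes shifted with GC content to a smaller degree. The median log2 difference between HFD+Pc and control was 0.15 in the quartile of genes lowest in GC and -0.15 in the quartile highest in GC. The same medians were 0.11 and -0.12 in HFD against control, and 0.05 and -0.03 in HFD+Pc against HFD. The lowest GC quartile held 14 rising and 4 falling genes, and the highest held 1 rising and 48 falling genes. With the trend of level on GC content and length removed in each library, 17 of the 26 rising and 53 of the 90 falling genes were still stepwise, among them Depp1, Wfdc21, Cyp2c29, Hadh, Decr2, Rpl41, Rpl28, Fabp1 and Aldh2. Cox6b1, Sik1, Mt2, Junb, Jund, St3gal5 and Agpat2 were among those that were not.

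**Figure D5:**
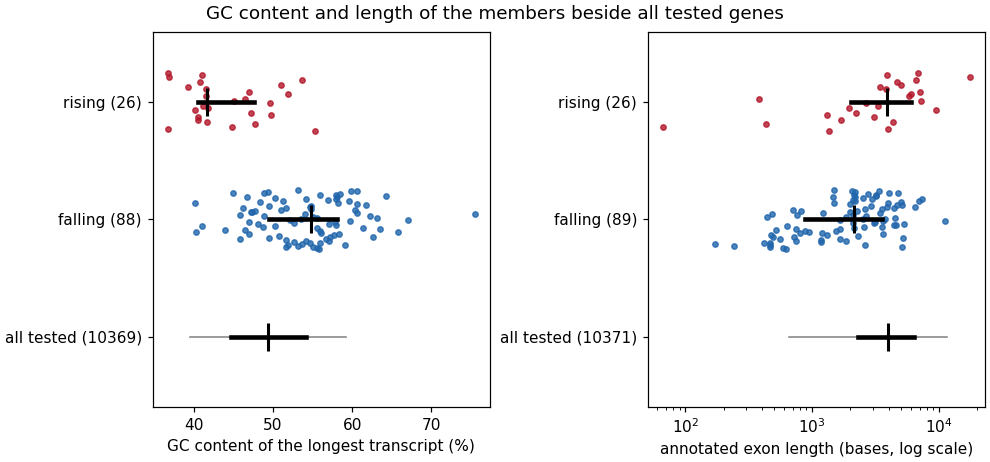
GC content of the longest transcript (left, %) and annotated exon length (right, bases on a log scale) of the rising and falling genes (1 point per gene, black marks for the median and the range of the 25th to the 75th percentile) and of all tested genes (black marks likewise, grey line for the 5th to 95th percentile). The falling genes centre on 54.7% GC and 2125 bases, and the rising genes on 41.7% GC and 3874 bases.

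Promoter windows of 300 bases, from 250 bases before to 50 bases after the annotated start, were available from RefSeq (GRCm38.p6) for 17 of 26 rising genes (19 windows) and 60 of 90 falling genes (71 windows). Their median GC content was 57% for rising, 63.3% for falling and 52.7% for all 32851 windows. All windows were taken whether or not their gene was expressed in liver, whereas every member had a mean of at least 1 FPKM. A share among tested genes alone was not computed, so higher shares may not be particular to the members. The GC box GGGCGG, read on both strands, stood in 60.6% of falling and 52.6% of rising windows, against 35.7% of all windows. The cyclic AMP core TGACG stood in 36.6%, 31.6% and 20.8%, the ETS element CCGGAAG in 18.3%, 5.26% and 8.86%, and the NRF1 motif GCGCATG in 9.86%, 5.26% and 3.91%, each in the order falling, rising and all. The TATA box TATAAA was at 12.7% in falling and 21.1% in rising windows, against 13.6% of all, and CCAAT at 36.6% and 31.6%, against 37.4%. Again in the order falling, rising and all, the E-box CACGTG was at 5.63%, 10.5% and 7.15%. The AP-1 element TGACTCA was at 4.23%, 5.26% and 5.2%, and the YY1 core AAGATGG at 4.23%, 5.26% and 6.34%. The FOXO element GTAAACA was at 5.63%, 0% and 3.65%, and the Depp1 window held no match to it. A match of letters is a description and not a binding site.

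The promoters of Atp5k (chr5:108434350-108434649, minus strand) and Cox6b1 (chr7:30626065-30626364, minus strand) are shown because they are those with an ETS element among 5 of the 7 subunit genes whose windows were examined singly, with the ETS element, the NRF1 motif GCGCATG and CCAAT in capitals on either strand. Atp5k holds 1 ETS element and 2 NRF1 motifs that overlap on opposite strands, and Cox6b1 holds 1 ETS element and 3 CCAAT boxes. Of the other 3 subunit promoters searched for these motifs and the YY1 core AAGATGG, Ndufb8 held 1 NRF1 motif and 1 YY1 core, Ndufc2 held 1 CCAAT box, and Atp5o held no match.
Atp5k: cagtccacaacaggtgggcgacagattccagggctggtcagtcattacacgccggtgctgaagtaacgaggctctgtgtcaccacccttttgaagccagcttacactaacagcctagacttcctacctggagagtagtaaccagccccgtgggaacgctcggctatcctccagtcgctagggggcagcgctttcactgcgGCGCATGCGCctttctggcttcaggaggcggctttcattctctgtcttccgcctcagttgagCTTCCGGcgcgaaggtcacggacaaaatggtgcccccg
Cox6b1: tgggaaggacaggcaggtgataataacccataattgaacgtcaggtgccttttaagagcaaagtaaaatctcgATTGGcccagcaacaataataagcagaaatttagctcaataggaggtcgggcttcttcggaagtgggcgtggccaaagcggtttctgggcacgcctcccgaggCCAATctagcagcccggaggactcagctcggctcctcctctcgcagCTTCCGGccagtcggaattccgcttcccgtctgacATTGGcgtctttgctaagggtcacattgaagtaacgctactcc

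The promoter of Mt2 (chr8:94172368-94172667, plus strand) is shown with the metal response core in capitals on either strand, in the forms TGCACNC and TGCGCNC, where N is any base. It holds 2 of each, while 12.6% of all windows hold the first form and 15.4% the second. The first form stood in 11.3% of falling and 31.6% of rising windows, and the second in 31% and 21.1%.
Mt2: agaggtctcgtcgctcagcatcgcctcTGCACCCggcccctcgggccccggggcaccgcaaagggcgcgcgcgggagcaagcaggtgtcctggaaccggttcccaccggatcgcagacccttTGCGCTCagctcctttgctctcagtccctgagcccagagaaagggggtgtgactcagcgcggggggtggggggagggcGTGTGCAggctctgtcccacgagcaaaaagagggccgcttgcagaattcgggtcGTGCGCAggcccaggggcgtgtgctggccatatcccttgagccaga

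The promoters of Fabp1 (chr6:71199629-71199928, plus strand) and Cyp2c29 (chr19:39286835-39287134, plus strand) are the falling and rising examples of abundant liver genes with a TATA box, which is in capitals.
Fabp1: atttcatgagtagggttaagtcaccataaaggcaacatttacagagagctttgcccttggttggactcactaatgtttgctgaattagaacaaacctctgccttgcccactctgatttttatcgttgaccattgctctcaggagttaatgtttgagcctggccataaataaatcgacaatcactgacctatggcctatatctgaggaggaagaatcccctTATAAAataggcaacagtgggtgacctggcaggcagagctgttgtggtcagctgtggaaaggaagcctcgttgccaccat
Cyp2c29: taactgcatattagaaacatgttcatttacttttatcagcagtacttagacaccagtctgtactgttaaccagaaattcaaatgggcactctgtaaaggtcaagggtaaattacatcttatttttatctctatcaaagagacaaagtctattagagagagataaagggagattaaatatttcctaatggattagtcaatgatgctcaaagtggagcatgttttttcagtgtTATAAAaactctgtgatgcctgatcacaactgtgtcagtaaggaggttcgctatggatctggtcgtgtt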

How the data were processed

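Liver RNA of 9 libraries in 3 groups was sequenced, with GRCm39 as genome build and HISAT2 2.0.5 among the tools, per the submitters' processing notes. The authors deposited FPKM per gene, per the file headers, while the counter, annotation, strand setting and handling of multiple matches are not given in the sources used here. Groups follow the labels. Reads were recovered as whole multiples (within 0.02) of the FPKM of 1 read, using GENCODE M21 exon lengths, for 25356 of 26278 rows above 0 (96.5%) and for 25 of 26 rising and 86 of 90 falling genes. At this depth 3 reads on a 1000-base gene are 0.160 to 0.179 FPKM. Rows with a mean of at least 1 FPKM were tested with limma 3.58.1 (R 4.3.3; lmFit, eBayes with trend and robust) on log2(FPKM + 1), a scale that understates changes of low genes, with all 9 libraries in 1 model and Benjamini-Hochberg adjustment at 0.05. The fit was tested on simulated counts with the same dispersion for all genes, so that test does not measure error rates in these libraries. No count model was used. Tables were made with Python 3.11.15 and pandas 2.3.3, and copies were sought with BLAST 2.17.0+ in the GENCODE M21 transcripts, an earlier build.

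The genes, their role groups and the 49 gene lists were chosen with earlier results of these data known. Values were given by rule for the 15 largest differences with a gene symbol and the 5 highest levels in each direction, members of the lists (up to 6 a list and direction), and genes beside the thresholds. Other genes, among them Selenot, Mif, G6pdx, Kdm6b, Mt1, Vnn1, Egr1 and Cpt1a, were named after their values were seen, and a few members are counted but not reported here by name. Lists that hold a member are described, and besides them cholesterol synthesis, the mitochondrially encoded genes and some marker lists. Alternatives changed the thresholds, the scaling, the pseudocount, the filter and the libraries. Removal of a GC and length trend (lowess, span 0.3) and of genes with copies were added after seeing the data.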

Additional observations from a re-analysis of the deposited data

How the results depend on the processing

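The number of stepwise genes depended on the rule. With a step of at least 1.1-fold there were 138 rising and 184 falling genes, and with 1.5-fold 2 and 10. A pseudocount of 0.1 in the step gave 40 rising genes, scaling each library to the same sum gave 15, and a mean of at least 5 FPKM left 58 falling genes. Leaving out 1 library gave 25 to 68 rising and 100 to 128 falling genes, with 68 rising genes without HFD+Pc replicate 1, 49 without HFD replicate 1 and 42 without HFD replicate 3 or control replicate 1. Without HFD replicate 3, 17 of the 26 rising and 70 of the 90 falling genes were still in the set. In all 3 other scalings 14 rising and 60 falling genes were kept, and 11 and 42 also with the GC and length trend removed. Of 672 values of the 48 genes named by rule under the alternatives, 34 moved by more than the spread between replicates, and the choice of genes largely fixes their sign. These values are differences between HFD+Pc and control, so leaving out an HFD library could not change them. The steps to and from HFD are not covered by them. The limma counts also moved. HFD+Pc against control gave 2502 calls, 1383 with no filter, 1614 with a mean of at least 5 FPKM, and 1389 to 2577 with 1 library left out. HFD+Pc against HFD gave 68 calls, 3 with no filter, 109 with equal sums or quantile normalization, 136 with the GC and length trend removed, and 7 (without HFD+Pc replicate 3) to 153 (without HFD replicate 3) with 1 library left out. HFD against control gave 1082 calls, 209 with no filter and 362 to 1131 with 1 library left out, the lowest without control replicate 2. Replicate numbers are not stated to pair libraries, and the deviations of libraries with the same number correlated at -0.14 to 0.05 over tested rows. With the replicate number as a block the 3 comparisons gave 1022, 1 and 217 calls. With 3 libraries a group, no outlying library was tested for. The cause of these shifts was not tested.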
